A study of Mus musculus with 9 samples.

Results

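The 10 immediate early genes Fos, Fosb, Jun, Junb, Jund, Egr1, Egr2, Egr3, Ier2 and Nr4a1 were followed in plasma cells of the mouse spleen, taken by their symbol from the 46958 genes of a table of read counts. All 10 passed the filter on low counts, as did 14199 genes in all. RNA was sequenced from 9 libraries, each from the CD138-positive cells of 1 spleen, and CD138 (syndecan-1) is the surface protein by which plasma cells are commonly isolated. The mice were 3 months old, had not been immunized and had a mixed background labelled C57/BL6x129/SVxBALB/c, and 3 mice were sampled per genotype: WT, DH-LMP2A and kFRA (LCDD). LCDD stands for light chain deposition disease, in which a monoclonal light chain damages tissue. The labels describe the alleles no further and do not say whether kFRA mice also carry the DH-LMP2A allele. LMP2A is a membrane protein of Epstein-Barr virus whose tail recruits kinases of the B cell receptor, and B cells that express it can form without a receptor. Of all counts, the constant regions of the heavy chain made up 24.4% ± 2.62 in WT (mean ± SD, n = 3), while DH-LMP2A had 1.12% ± 0.033 and kFRA 0.913% ± 0.0474 (both SD, n = 3).

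Immediate early genes are switched on within minutes of a stimulus by transcription factors that are already in the cell, without new protein synthesis, and their transcripts are short-lived. In lymphocytes they respond to antigen receptors through calcium and the MAP kinase pathway, and they also respond to the handling of tissue, so in isolated cells their level can carry both. Fos, Fosb, Jun, Junb and Jund are subunits of the dimeric transcription factor AP-1, Egr1, Egr2 and Egr3 are zinc finger transcription factors, Nr4a1 (Nur77) is an orphan nuclear receptor widely used as a reporter of antigen receptor signalling, and Ier2 is a small nuclear protein.

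Among the regulators of such genes, CREB and the serum response factor bind sequences named the cyclic AMP response element and the CArG box. The 250 bases before the start site are shown for Fos, the most abundant member per length, for Fosb, which spread 90-fold over the 9 libraries, and for Egr2 and Nr4a1, which were lower in both DH-LMP2A and kFRA than in WT. They are RefSeq sequences of build GRCm38.p6, read 5′ to 3′ on the strand of the gene, at chr12:85473640-85473889 (plus strand), chr7:19310046-19310295 (minus strand), chr10:67537619-67537868 (plus strand) and chr15:101266596-101266845 (plus strand). Capitals mark TGACG, the core of the response element, on either strand (CGTCA on the opposite one) and the CArG box.
Fos: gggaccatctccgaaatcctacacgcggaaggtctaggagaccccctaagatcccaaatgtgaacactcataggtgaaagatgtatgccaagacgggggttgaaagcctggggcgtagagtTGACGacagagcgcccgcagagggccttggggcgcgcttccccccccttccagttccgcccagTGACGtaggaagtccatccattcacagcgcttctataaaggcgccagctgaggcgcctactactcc
Fosb: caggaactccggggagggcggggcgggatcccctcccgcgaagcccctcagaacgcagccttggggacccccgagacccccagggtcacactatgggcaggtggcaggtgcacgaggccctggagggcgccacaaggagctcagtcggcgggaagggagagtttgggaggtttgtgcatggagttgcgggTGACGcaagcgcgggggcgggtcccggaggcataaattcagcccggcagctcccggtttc
Egr2: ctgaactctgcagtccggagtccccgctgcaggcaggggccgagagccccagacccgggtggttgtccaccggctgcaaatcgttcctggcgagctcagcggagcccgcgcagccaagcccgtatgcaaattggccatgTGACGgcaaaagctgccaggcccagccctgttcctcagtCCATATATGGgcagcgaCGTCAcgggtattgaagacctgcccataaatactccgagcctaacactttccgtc
Nr4a1: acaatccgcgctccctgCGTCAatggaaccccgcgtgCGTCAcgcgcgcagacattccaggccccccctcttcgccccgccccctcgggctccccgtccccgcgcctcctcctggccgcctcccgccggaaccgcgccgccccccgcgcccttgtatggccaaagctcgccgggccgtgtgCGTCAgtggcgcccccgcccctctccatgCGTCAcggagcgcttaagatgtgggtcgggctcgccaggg
The promoter table held 7 of the 10 members at an exon start of the count table, which for Egr2 lies inside the span of the gene given below. For Junb and Jund, no transcript of the reference annotation held the first bases after this start, so these windows are uncertain. Of these 7 windows, 5 held TGACG on either strand (Fos, Fosb, Junb, Egr2 and Nr4a1), against 17.8% of 32851 windows of the same length. The CArG box was found in 1 of 7 (Egr2), against 1.47% of all windows. The EGR site GCGNGGGCG was found in Fosb and Nr4a1 and in 4.7% of all windows. The TATA box TATAAA was found in Fos and in 12.4% of all windows. The full element TGACGTCA, the AP-1 site TGANTCA and the NR4A site AAAGGTCA were in none of the 7 windows and in 1.55%, 6.75% and 1.34% of all. No 2 of the sites found in the printed windows overlapped. In the count table, whose coordinates are on GRCm38, these protein-coding genes span chr12:85473890-85477273 (Fos), chr7:19302721-19310045 (Fosb), chr10:67535475-67542188 (Egr2) and chr15:101266846-101274792 (Nr4a1), and no exon of another gene overlaps them. The matches describe letters in the window and were not tested as sites.

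Expression was counted as reads per gene and is given as CPM, a count relative to the library size after TMM scaling, which evens out libraries whose bulk of genes is shifted by a few abundant ones. Total counts per library ranged from 15449026 to 21558128, and 3 counts, taken as the floor of detection, corresponded to 0.127 to 0.205 CPM. Every member had at least 12 counts in every library. The summed level of 8 plasma cell markers was 18870 to 47120 CPM, and other cells were present in a fraction labelled as over 80% pure, since 8 macrophage and monocyte markers summed to 920.9 to 5411 CPM, 8 erythroid markers to 39.27 to 13630 CPM and 8 B cell markers to 231.7 to 657.1 CPM. In such bulk samples, fewer cells of a type and less RNA per cell cannot be told apart. DH-LMP2A replicate 3 and kFRA replicate 2 stood apart: 1361 and 1679 of 13942 non-immunoglobulin genes were 2-fold or more away from the mean of the other 2 libraries of the genotype, against 470 to 1104 in the other 7. The p-values below rest on the spread between mice within genotypes, estimated per gene over all 3 genotypes with 3 mice each. A comparison of 2 genotypes thus also carries the spread of the genotype outside it.

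Per length of transcript, the AP-1 genes were the most abundant members. Over the 9 libraries the mean level in CPM per kilobase (RPKM) was 226 for Fos, 186 for Jun, 106 for Jund, 87.2 for Junb, 51.1 for Fosb, 39.7 for Ier2, 13.6 for Egr1, 7.16 for Nr4a1, 1.35 for Egr3 and 0.608 for Egr2. Fos lay above 97.9% of the genes tested and Egr2 above 15.3%. In kFRA the RPKM order was Fos, Jun, Jund, Junb, Fosb, Ier2, Egr1, Nr4a1, Egr3 and Egr2, and the libraries of Jund and Junb, Junb and Fosb, and Fosb and Ier2 overlapped while those of all other neighbours were apart. In WT it was Fos, Jun, Junb, Jund, Ier2, Nr4a1, Egr1, Fosb, Egr3 and Egr2. There only Jund and Ier2, Ier2 and Nr4a1, and Fosb and Egr3 were apart, so Fosb, at 10.9 RPKM against 104 RPKM in kFRA, was not separated from Egr1. DH-LMP2A had the order Jun, Fos, Jund, Junb, Fosb, Ier2, Egr1, Nr4a1, Egr3 and Egr2, with Jun at 211 RPKM, and only Jund and Junb, Nr4a1 and Egr3, and Egr3 and Egr2 were apart. Some neighbours whose ranges overlapped still kept their order within each library. Jun was above Fos and Ier2 above Egr1 in all 3 DH-LMP2A libraries, and Fosb above Ier2 in all 3 kFRA libraries.

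**Figure D1:**
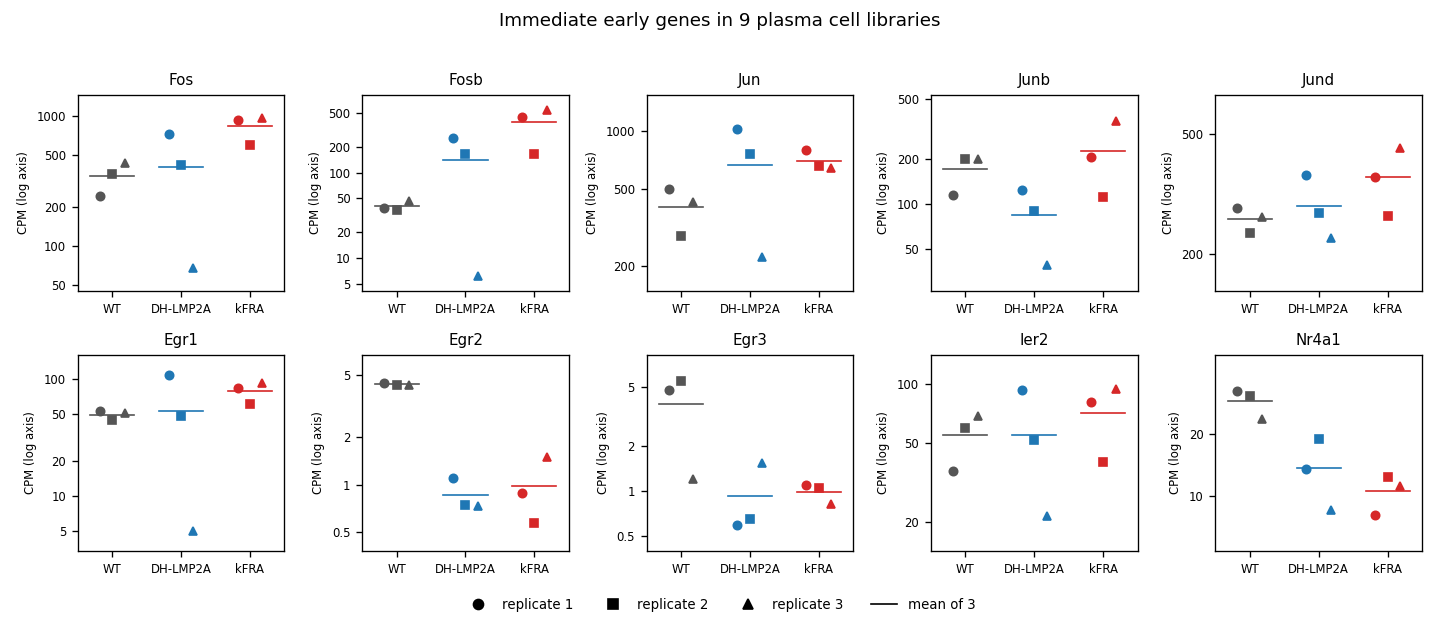
Level of each of the 10 members in the 9 libraries, in CPM on a log axis whose range differs between panels, with symbols for the replicates and a line for the mean of 3. The level of Fosb in DH-LMP2A replicate 3 was 6.13 CPM, and Egr2 lay between 4.28 and 4.45 CPM in WT, with 1.504 CPM as the highest value of DH-LMP2A and kFRA.

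Fos, the partner of the Jun proteins in AP-1, was at 244, 359 and 441 CPM in WT replicates 1 to 3, at 727, 424 and 67.9 CPM in DH-LMP2A and at 932, 604 and 975 CPM in kFRA. All kFRA libraries were above all WT libraries, and DH-LMP2A spanned 10.7-fold, from below every WT library to above every one. Fosb, a Fos paralog that is induced with it, was at 38.8, 36.8 and 47.0 CPM in WT, at 256, 165 and 6.13 CPM in DH-LMP2A and at 458, 165 and 552 CPM in kFRA. It was thus nearly even in WT (1.28-fold between the lowest and highest library) but spread 41.8-fold in DH-LMP2A and 3.35-fold in kFRA. Set against Fos per length, the ratio of Fosb to Fos averaged 0.0769 ± 0.02 in WT, against 0.174 ± 0.1 in DH-LMP2A and 0.278 ± 0.096 in kFRA (SD, n = 3 for each). This ratio was chosen after the values were seen and was not tested.

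Jun was at 503, 288 and 428 CPM in WT, at 1034, 761 and 222 CPM in DH-LMP2A and at 804, 660 and 648 CPM in kFRA, again with all kFRA libraries above all WT libraries and DH-LMP2A on both sides of WT. Its value is uncertain because exons of Junos overlap it on the opposite strand and the counter's strand setting is not stated. Junb, an AP-1 subunit that can oppose Jun, ranged from 115 to 200 CPM in WT, 39.6 to 125 CPM in DH-LMP2A and 112 to 356 CPM in kFRA, so that all 3 ranges overlapped. Jund, the Jun protein present in resting cells, varied least, between 227 and 450 CPM over all libraries (1.98-fold), and is uncertain because exons of Gm11175 overlap it on the opposite strand.

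Egr1, an early zinc finger factor of the MAP kinase pathway, was at 53.3, 44.6 and 51.1 CPM in WT, at 108, 48.3 and 5.08 CPM in DH-LMP2A and at 83.2, 61.2 and 93.0 CPM in kFRA. Ier2 ranged from 36.2 to 68.3 CPM in WT, 21.3 to 92.8 CPM in DH-LMP2A and 39.98 to 93.6 CPM in kFRA. Egr1 and Ier2 thus shared with Fos, Fosb, Jun and Junb the low library of DH-LMP2A. In DH-LMP2A, replicate 3 was the lowest library for 9 of the 10 members, Egr3 being the exception, and replicate 1 the highest for 8. Replicate 2 was the lowest kFRA library for 7 members.

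**Figure D2:**
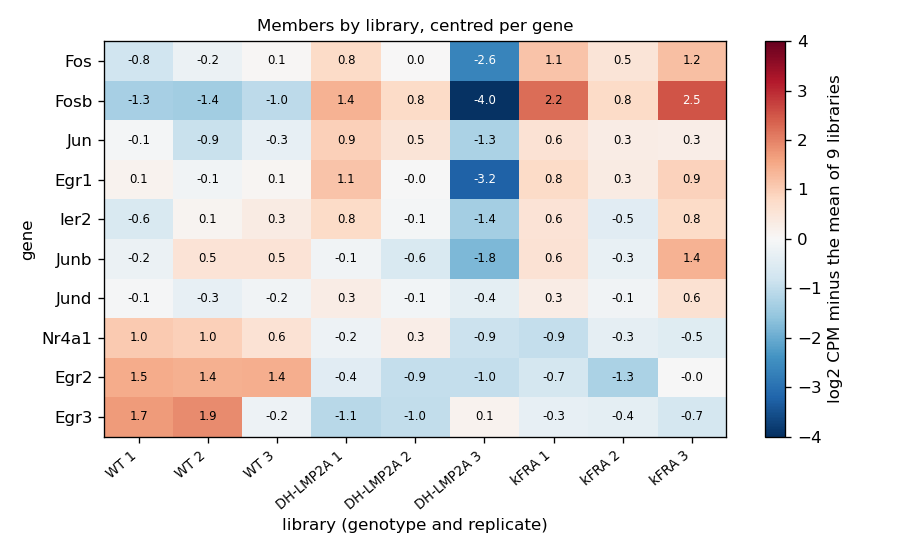
Log2 CPM of each member in each library (columns, by genotype and replicate) minus the gene's mean over the 9 libraries, red for higher and blue for lower. DH-LMP2A replicate 3 is blue for Fos, Fosb, Jun, Egr1, Ier2 and Junb, while Egr2 and Nr4a1 are red in the 3 WT libraries.

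Of the remaining members, Egr2 and Nr4a1 had all WT libraries above the other 6, while Egr3 did not and spread 4.55-fold within WT. Egr2, a zinc finger factor that restrains lymphocyte activation, was at 4.45, 4.28 and 4.33 CPM in WT, at 1.10, 0.742 and 0.732 CPM in DH-LMP2A and at 0.888, 0.570 and 1.504 CPM in kFRA. These rest on 68 to 88 counts per WT library and 12 to 26 per library elsewhere, and no WT library overlapped the rest. Egr3, which acts alongside Egr2, was at 4.76, 5.50 and 1.21 CPM in WT, at 0.592, 0.649 and 1.56 CPM in DH-LMP2A and at 1.09, 1.05 and 0.815 CPM in kFRA. WT replicate 3 lay within the DH-LMP2A range, so the WT mean rests on replicates 1 and 2. Nr4a1 was at 32.2, 30.7 and 23.7 CPM in WT, at 13.6, 18.8 and 8.55 CPM in DH-LMP2A and at 8.13, 12.4 and 11.2 CPM in kFRA, each WT library being above the other 6.

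Comparing kFRA with WT, whose share of heavy-chain transcripts differed as given above, Egr2, Egr3 and Nr4a1 fell and no member passed upward. Egr2 was 4.44-fold lower, a log2 fold change of -2.15 with an SE of 0.353 (edgeR adjusted p = 0.00381). Nr4a1 was 2.73-fold lower (-1.45, SE 0.282, edgeR adjusted p = 0.00846) and Egr3 3.88-fold lower (-1.96, SE 0.571, edgeR adjusted p = 0.0431). All genes tested gave 17.8% past the threshold in either direction and 11.1% lower in kFRA, against 3 of the 10 members. The median log2 fold change of the 10 members was 0.42, against -0.04 over all genes. Fosb had the widest difference, 9.58-fold between the means of 392 ± 202 CPM for kFRA and 40.9 ± 5.38 CPM for WT (SD, n = 3 each). Its log2 fold change was 3.26 with an SE of 0.992, just outside the threshold (edgeR adjusted p = 0.0502) and past it in 8 of 13 other settings. Libraries did not overlap, higher in kFRA, for 4 members (Fos, Fosb, Jun and Egr1; 14.2% of all genes), and, lower, for Egr2, Egr3 and Nr4a1 (20.2% of all genes). Fos (1.27 in log2 terms, SE 0.647, edgeR adjusted p = 0.192), Jun (0.79, SE 0.459, edgeR adjusted p = 0.243) and Egr1 (0.67, SE 0.734, edgeR adjusted p = 0.532) did not pass. In a fit of only the 6 libraries compared, however, Fos, Fosb and Egr1 passed upward, and Egr2 and Nr4a1 passed downward.

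Egr2 and Nr4a1 passed in each of the 6 fits of kFRA against WT that left out 1 library, but Egr3 passed only without WT replicate 3. Egr3 also missed the threshold with library size alone (edgeR adjusted p = 0.0658) and in a fit of only the 6 libraries compared (edgeR adjusted p = 0.0525). Without kFRA replicate 2, Fosb (log2 fold change 3.69, edgeR adjusted p = 0.0254) and Jund (0.70, edgeR adjusted p = 0.039) passed too, and 5632 genes were past the threshold in all, against 2523. With both kFRA replicate 2 and DH-LMP2A replicate 3 left out, an alternative added after seeing the data, 8 members passed: Fos, Fosb, Jun, Jund and Egr1 upward and Egr2, Egr3 and Nr4a1 downward. Without kFRA replicate 2, the kFRA libraries were low in Xist (1.30 and 3.13 CPM). WT replicates 1 and 3 were high in it (782 and 494 CPM) and replicate 2 low (0.459 CPM). Genotype and the sex of the mice, read from Xist below, cannot be told apart in full there.

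In DH-LMP2A against WT, Egr2, Egr3 and Nr4a1 fell as well, and again no member passed upward. Egr2 was 5.04-fold lower (-2.33 in log2 terms, SE 0.35, edgeR adjusted p = 0.00287), Egr3 4.11-fold lower (-2.04, SE 0.563, edgeR adjusted p = 0.0443) and Nr4a1 2.12-fold lower (-1.08, SE 0.277, edgeR adjusted p = 0.0334). Over all genes 12.4% passed in either direction and 7.30% were lower in DH-LMP2A. The libraries of 2 members, Egr2 and Nr4a1, did not overlap, which 19.1% of all genes showed in that direction. Junb averaged 84.8 ± 42.9 CPM, against 172 ± 48.9 CPM for WT (SD, n = 3 each), and with -1.02 in log2 terms (SE 0.482) did not pass (edgeR adjusted p = 0.217). Nor did Fosb (1.80, SE 0.939, edgeR adjusted p = 0.266) or Fos (0.22, SE 0.637, edgeR adjusted p = 0.878). Both comparisons use the same WT libraries, so the recurrence of Egr2, Egr3 and Nr4a1 is not independent.

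One library decided several of these values. Without DH-LMP2A replicate 3, Fosb (log2 fold change 2.37, edgeR adjusted p = 0.0122) and Jun (1.15, edgeR adjusted p = 0.0314) passed in DH-LMP2A against WT and Nr4a1 did not (-0.83, edgeR adjusted p = 0.0583). Nr4a1 also missed the threshold without DH-LMP2A replicate 1, WT replicate 1 or WT replicate 2, and Egr3 passed only without DH-LMP2A replicate 3 or WT replicate 3, and neither with library size alone (edgeR adjusted p = 0.0718) nor in a fit of only the 6 libraries compared (edgeR adjusted p = 0.0752), while Egr2 passed in all 6 fits. With DH-LMP2A replicate 3 and kFRA replicate 2 both left out, 5 members passed, Fosb and Jun upward and Egr2, Egr3 and Nr4a1 downward. Without DH-LMP2A replicate 3, the DH-LMP2A libraries were high in Xist (923 and 881 CPM), while WT held libraries high and low in it. Genotype and sex cannot be told apart in full in these fits either.

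**Figure D3:**
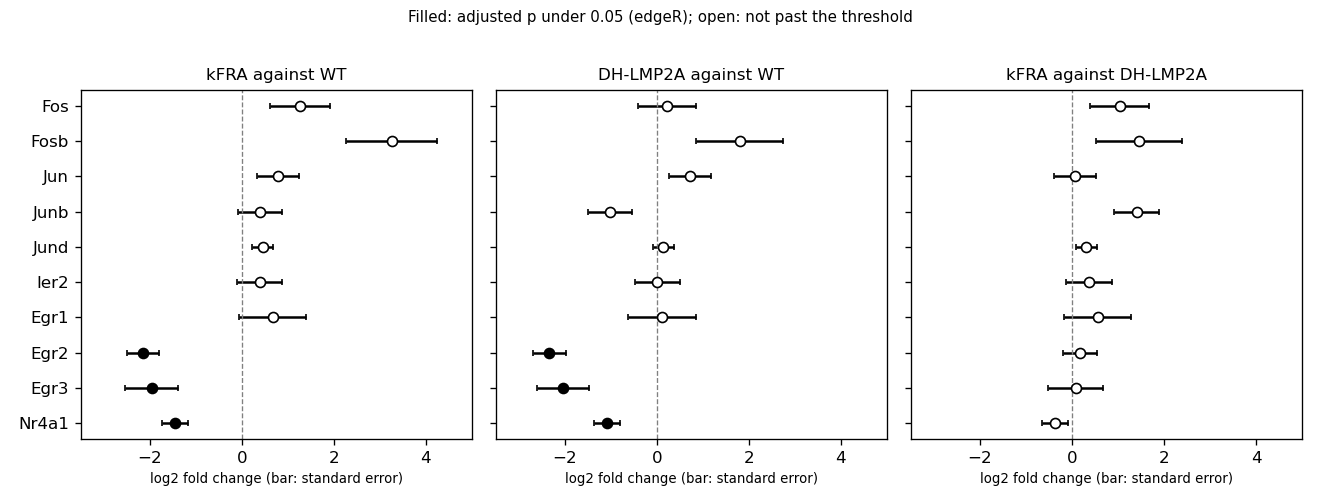
Log2 fold change of each member (points) with its standard error (bars) in the 3 comparisons, filled where the edgeR adjusted p-value was under 0.05. Egr2, Egr3 and Nr4a1 are filled on the lower side in both comparisons with WT, and none is filled in kFRA against DH-LMP2A.

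Between kFRA and DH-LMP2A, both with few heavy-chain transcripts, no member passed by edgeR's quasi-likelihood test, while 5.02% of all genes did. At an unadjusted p under 0.05, 1 member was found (Junb), against 22.4% of all genes, and the DESeq2 Wald test called 1, also Junb. Junb ranged from 112 to 356 CPM in kFRA, overlapping DH-LMP2A at 39.6 to 125 CPM. Its log2 difference was 1.41 (SE 0.487, edgeR adjusted p = 0.14), and it passed without kFRA replicate 2 (1.79, edgeR adjusted p = 0.0287). No member's libraries were apart, which 25.6% of all genes showed. The log2 fold change was positive for 9 of 10 members, with a median of 0.34 against -0.01 over all genes, and for 6 when libraries were scaled by size alone, where Jun, Egr2 and Egr3 turned negative. Egr2 (log2 fold change 0.18, SE 0.369), Egr3 (0.08, SE 0.593) and Nr4a1 (-0.37, SE 0.28) gave edgeR adjusted p-values of 0.806, 0.949 and 0.46. With DH-LMP2A replicate 3 and kFRA replicate 2 both left out, Fosb (1.32, edgeR adjusted p = 0.0151) and Junb (1.45, edgeR adjusted p = 0.0295) passed. The DH-LMP2A libraries of that fit were high in Xist (923 and 881 CPM) and the kFRA libraries low (1.30 and 3.13 CPM). Genotype and the sex of the mice, read from Xist below, therefore cannot be told apart there.

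Other immediate early genes and the genes around them were read from lists. Of 30 further immediate early genes 27 were tested. In kFRA against WT, 3 rose and 6 fell, with 6.68% of all genes higher and 11.1% lower, in DH-LMP2A against WT none rose and 4 fell, with 7.30% of all genes lower, and in kFRA against DH-LMP2A none passed by edgeR (4 at an unadjusted p under 0.05, as 22.4% of all genes were). Btg1, an antiproliferative gene, fell to 43.3 CPM in kFRA and 50.9 CPM in DH-LMP2A from 126 CPM in WT (edgeR adjusted p = 0.0012 and 0.00345). Nr4a2, a paralog of Nr4a1, was at 1.29 CPM in WT, 0.253 CPM in DH-LMP2A and 0.186 CPM in kFRA (edgeR adjusted p = 0.00712 and 0.00408 against WT), the last resting on 1 to 5 counts per library. Nr4a3, the remaining paralog, fell in kFRA from 1.83 to 0.244 CPM (edgeR adjusted p = 0.0219), and in DH-LMP2A, at 0.791 CPM, it did not pass (edgeR adjusted p = 0.226). Plk2 fell from 3.47 CPM in WT to 0.754 CPM in kFRA and 0.72 CPM in DH-LMP2A, and Myc from 17.0 to 8.88 CPM in kFRA (edgeR adjusted p = 0.0195). The genes that rose in kFRA against WT, named for their count after their values were seen, were Rhob (log2 fold change 1.18), Trib1 (0.81) and Btg2 (0.58).

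Of 16 feedback genes of MAP kinase and EGR signalling 14 were tested, of which 3 fell in kFRA against WT (11.1% of all genes), 2 in DH-LMP2A against WT (7.30% of all genes) and none passed between kFRA and DH-LMP2A by edgeR (1 at an unadjusted p under 0.05, against 22.4% of all genes), with none rising. Dusp4, a phosphatase that inactivates MAP kinases in the nucleus, was at 10.1, 12.1 and 13.4 CPM in WT, at 1.35, 1.76 and 1.19 CPM in DH-LMP2A and at 0.82, 1.57 and 1.13 CPM in kFRA. It fell by 3.31 on the log2 scale in kFRA (SE 0.282, edgeR adjusted p = 5.66e-05) and by 3.04 in DH-LMP2A (SE 0.273, edgeR adjusted p = 0.00013), with WT apart from both. Dusp5, which acts on ERK, fell from 17.5 CPM to 9.07 CPM in kFRA and 7.80 CPM in DH-LMP2A (edgeR adjusted p = 0.0181 and 0.00866), and is uncertain because exons of AC137853.2 overlap it. Socs3, a feedback inhibitor of cytokine receptors, fell in kFRA (-2.65 in log2 terms, SE 0.751, edgeR adjusted p = 0.039). Nab1, a corepressor of EGR proteins, was at 58.7 CPM in DH-LMP2A, 32.9 CPM in kFRA and 32.5 CPM in WT and passed in no comparison.

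**Figure D4:**
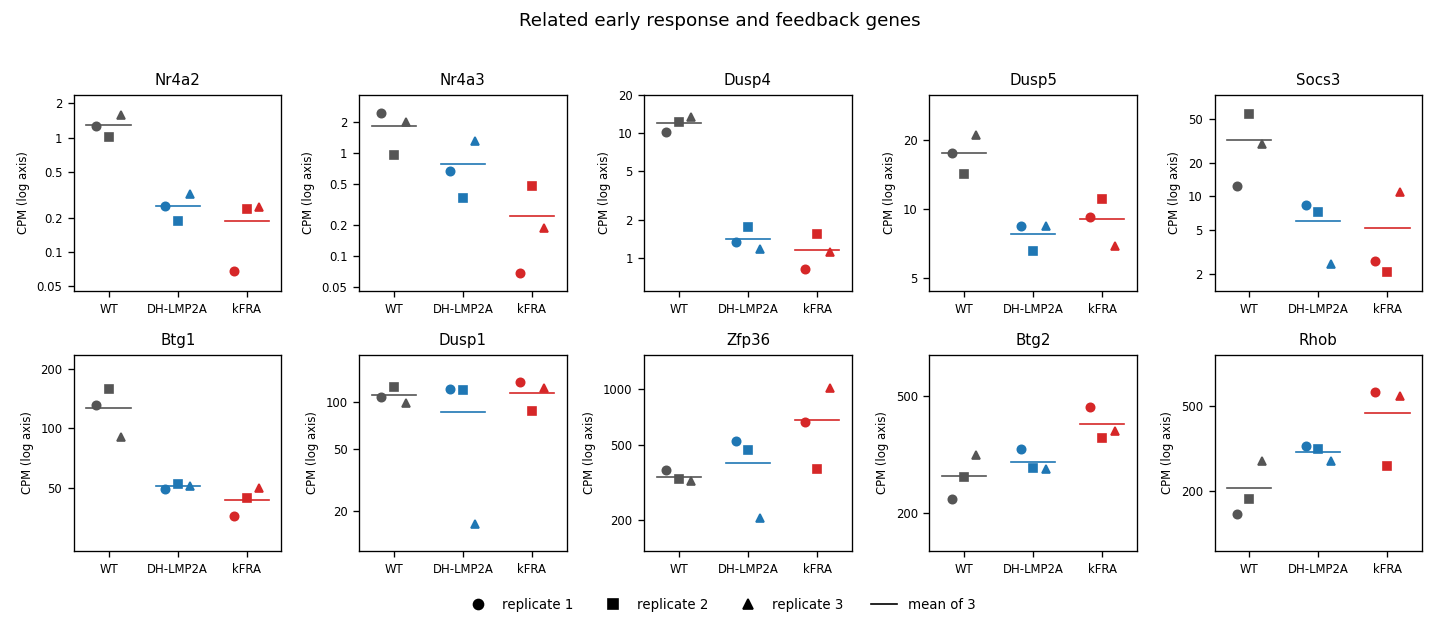
Level in CPM (log axis, range differing between panels) of 10 early response and feedback genes by genotype, with symbols for the replicates and a line for the mean of 3. Nr4a2, Dusp4, Dusp5, Socs3 and Btg1 are highest in WT, and Dusp1 is at 16.5 CPM in DH-LMP2A replicate 3 against 87.2 to 133 CPM elsewhere.

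Of 24 upstream kinases and serum response factors, Elk3 fell in kFRA against WT, where 11.1% of all genes did (edgeR adjusted p = 0.0449), uncertain because exons of Cdk17 overlap it, Mef2c fell in kFRA against DH-LMP2A (-0.89 in log2 terms, SE 0.198, edgeR adjusted p = 0.0352), where 5.02% of all genes passed, and none passed in DH-LMP2A against WT by edgeR (3 at an unadjusted p under 0.05, against 26.6% of all genes). Of 12 other AP-1 and basic leucine zipper partners 11 were tested, and Batf3 (log2 fold change -1.94, SE 0.332) and Maff (-1.39, SE 0.382) fell in DH-LMP2A against WT, as 7.30% of all genes did. Among 12 early activation genes of B cells, 5 fell in kFRA against WT (Nr4a3, Nfkbid, Ccl3, Ccl4 and Myc) and 1 in DH-LMP2A against WT (Ccl4), beside 11.1% and 7.30% of all genes, and none rose. Ccl4 is named for its count, after its values were seen. Of 11 heat shock genes that tissue dissociation is known to raise, Hspb1 alone passed, falling from 2.32 CPM in WT to 0.446 CPM in kFRA and 0.884 CPM in DH-LMP2A, where 11.1% and 7.30% of all genes fell. The heat shock list summed to 1244 to 1609 CPM in kFRA, 1363 to 1706 CPM in DH-LMP2A and 1337 to 1970 CPM in WT. This sum is led by Hsp90ab1 and Hspa8, at 659 and 586 CPM on average in WT. Hspa1b was at 1.42, 6.42 and 39.3 CPM in WT replicates 1 to 3. It averaged 8.87 CPM in DH-LMP2A, highest in replicate 3 (13.1 CPM), and 2.81 CPM in kFRA. All kFRA libraries lay below all DH-LMP2A libraries for Hspa1b. Hspa1a, uncertain because exons of Gm20481 overlap it, went the same way. Whether handling shaped these levels was not tested.

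The gene whose pattern was most like the mean pattern of the 10 members over the 9 libraries was Dusp1, the MAP kinase phosphatase that is itself an immediate early gene (Pearson r = 0.956 over 9 libraries of log2 CPM, among 9845 genes with a mean of at least 5 CPM). Cpt2 (r = 0.939), Mrpl16 (r = 0.91) and Ptges (r = 0.901) came next. These values describe 9 libraries that fall into 3 genotypes, and they rest on 1 library: without DH-LMP2A replicate 3, Dusp1 was at r = 0.608 and ranked 1722. The mean also joins members with unlike patterns. Over the 9 libraries, r between 2 members ran from -0.639 (Egr3 and Jun) to 0.949 (Fosb and Fos).

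Levels of markers of other spleen cells differed between libraries and genotypes. In DH-LMP2A replicate 3, where Fos, Fosb and Egr1 were lowest, the 8 macrophage and monocyte markers summed to 920.9 CPM (2173 and 2685 CPM in replicates 1 and 2), the 8 granulocyte markers to 21.7 CPM (219 and 244 CPM) and the 8 erythroid markers to 13630 CPM (2564 and 2671 CPM). The 8 T cell markers summed to 82.8 CPM there (40.6 and 51.5 CPM) and the 8 B cell markers to 589.9 CPM (443 and 415 CPM). Of the T cell markers, Cd4 alone was lower in replicate 3, at 19.2 CPM (27.8 and 36.7 CPM). In kFRA replicate 2, the lowest of its genotype for 7 members, the macrophage and monocyte markers were instead the highest of kFRA, at 2778 CPM against 1977 and 2044 CPM. Beside the fall of Egr2, Egr3 and Nr4a1, the macrophage and monocyte markers summed to 3204 to 5411 CPM in WT, 920.9 to 2685 CPM in DH-LMP2A and 1977 to 2778 CPM in kFRA, and the erythroid markers to 39.3 to 341 CPM, 2564 to 13630 CPM and 1166 to 2805 CPM. Granulocyte markers summed to 270 to 901.5 CPM in WT, 21.7 to 244 CPM in DH-LMP2A and 9.50 to 25.6 CPM in kFRA. This sum is led by S100a9, with means of 294 CPM in WT, 85.8 CPM in DH-LMP2A and 6.28 CPM in kFRA. In DH-LMP2A against WT, 4 of the 7 granulocyte markers tested had a positive log2 fold change, and only Mpo passed, upward. B cell markers summed to 332.5 to 657.1 CPM in WT, 414.9 to 589.9 CPM in DH-LMP2A and 231.7 to 291.1 CPM in kFRA. The sum hides opposite directions in DH-LMP2A against WT, where Cr2 and Ms4a1 passed upward and Cd22 and Ciita downward (12.4% of all genes passed in either direction). Their mean log2 CPM, the covariate used below, was 5.13 to 6.24 in WT, 4.50 to 5.61 in DH-LMP2A and 3.735 to 4.27 in kFRA. No macrophage, erythroid or B cell marker was at 0 in any library, and of the granulocyte markers at most 1 was. With the mean log2 CPM of the erythroid markers as a covariate, no member passed against WT: Egr2 was at -1.99 in kFRA (edgeR adjusted p = 0.105) and -2.12 in DH-LMP2A (edgeR adjusted p = 0.26), and Nr4a1 at -0.91 and -0.44 (edgeR adjusted p = 0.326 and 0.897). With the B cell markers as the covariate, no member passed in kFRA against WT (Egr2 -2.67, edgeR adjusted p = 0.155), Egr3 turned to 0.85 and Fosb to -1.89 there, and Egr2 alone passed in DH-LMP2A against WT (-2.59, edgeR adjusted p = 0.017). With the macrophage and granulocyte markers, Egr2 (-2.20) and Nr4a1 (-0.77) passed in DH-LMP2A against WT (edgeR adjusted p = 0.013 and 0.0286), and Fosb alone passed in kFRA against WT (6.48, edgeR adjusted p = 0.0312). Since these marker levels differ between the genotypes, marker and genotype cannot be told apart in full. Xist, the transcript of the inactive X chromosome, was high in 5 libraries: both remaining DH-LMP2A libraries besides replicate 3, kFRA replicate 2, and WT replicates 1 and 3, which ranged from 494 to 923 CPM. Ddx3y, a gene of the Y chromosome, had no counts in these 5 libraries and was at 40.7 to 55.8 CPM in the rest. By these transcripts, each genotype held mice of both sexes. DH-LMP2A replicate 3, kFRA replicate 2 and WT replicate 2, the last of which did not stand apart otherwise, thus each differed in sex from the rest of their genotype. With Xist as a covariate 3 members, Egr2, Egr3 and Nr4a1, passed in each comparison with WT.

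**Figure D5:**
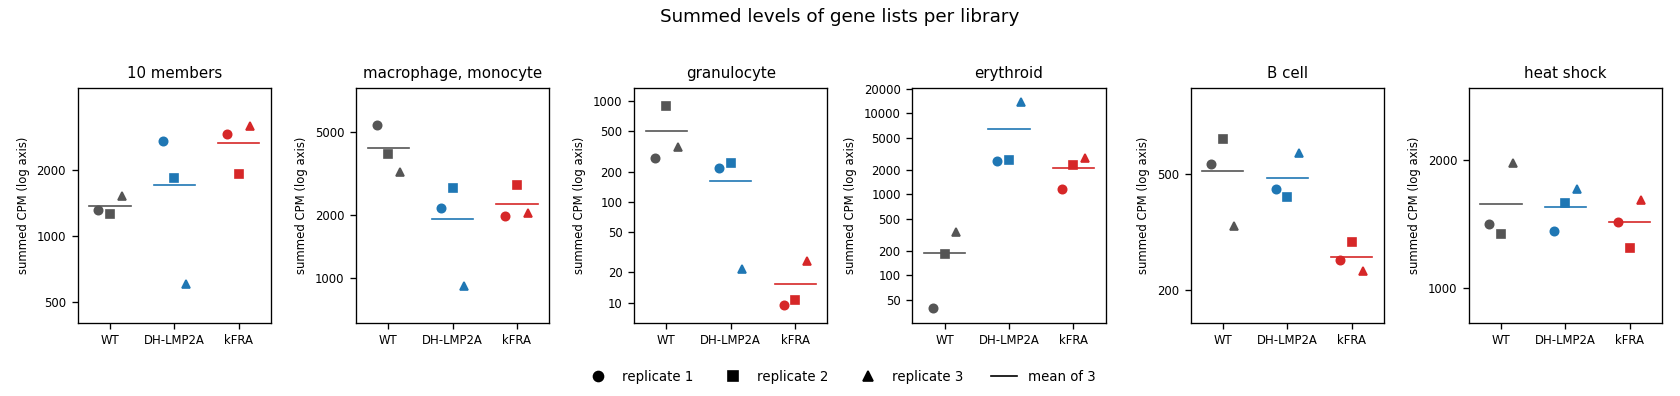
Summed CPM (log axis, range differing between panels) of the 10 members and of 5 gene lists in each library, with symbols for the replicates and a line for the mean of 3. In DH-LMP2A replicate 3 the members summed to 600 CPM, macrophage and granulocyte markers were lowest of that genotype and erythroid markers highest.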

How the data were processed

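Counts per gene in 9 libraries, from 3 mice for each of 3 genotypes, were used as the authors deposited them: raw read counts with no normalization, in the layout of featureCounts per the file headers. Per the labels' protocols, polyadenylated RNA was made into stranded libraries from 500 ng of RNA and read as pairs of 75 bases. STAR 2.4.0a, featureCounts, Subread 1.5.0-p3, DESeq2 and the build GRCm38 (mm10) are named in the submitters' processing notes; the strand setting and the treatment of reads with several matches are not given in the sources used here. The gene lengths of the deposited table served for RPKM.

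Genes were filtered with filterByExpr and tested over all 14199 with edgeR 4.0.16 (R 4.3.3): TMM scaling, 1 coefficient per genotype, quasi-likelihood F test, 2-sided, Benjamini-Hochberg adjustment over all genes and a threshold of 0.05. The standard error is the log2 fold change divided by the square root of F. Log2 CPM has a prior count of 2. The model was tested on simulated data. The members and lists were chosen with earlier results of these data known. By the rule for naming genes, all members are described, of each list up to 4 genes with the smallest p-value, and the genes most like the members. Replicates differed by more than sampling noise (chi-square per degree of freedom 17.3 to 164). Alternatives were other scalings (DESeq2 1.42.0 size factors, library size), filters and tests, left-out libraries, and covariates of marker genes and Xist. Floors cover counting error only, since reads are not independent molecules.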

Additional observations from a re-analysis of the deposited data

How the results depend on the processing

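Counts of genes past the threshold were 713 in kFRA against DH-LMP2A, 2523 in kFRA against WT and 1756 in DH-LMP2A against WT, with 0, 3 and 3 members. Where a value below differs from these, the cause was not tested unless fewer genes or libraries entered. Leaving out 1 library at a time gave 352 to 3299, 1271 to 5632 and 932 to 1408 genes and 0 to 1, 2 to 4 and 1 to 4 members, the highest gene counts of the comparisons with kFRA being those without kFRA replicate 2. In these fits the log2 fold change crossed 0 for 8 values: in kFRA against DH-LMP2A for Jun (-0.312 to 0.57), Egr2 (-0.259 to 0.542) and Egr3 (-0.108 to 0.7), in kFRA against WT for Junb (-0.11 to 0.778), and in DH-LMP2A against WT for Fos (-0.506 to 0.734), Jund (-0.071 to 0.297), Egr1 (-0.901 to 0.661) and Ier2 (-0.594 to 0.409). With DH-LMP2A replicate 3 and kFRA replicate 2 both left out, chosen after seeing the data, 2815 genes and 2 members passed in kFRA against DH-LMP2A, 5885 and 8 in kFRA against WT, and 5 members in DH-LMP2A against WT, and Jun turned to -0.253 in the first. That first comparison set kFRA libraries low in Xist against DH-LMP2A libraries high in it, so genotype and sex cannot be told apart. In the comparisons with WT, which held libraries high and low in Xist, they cannot be told apart in full. Library size alone moved the median log2 fold change of all genes to -0.136, 0.174 and 0.334 and the share of higher calls from 34.4%, 37.6% and 41% to 26%, 72.1% and 79.8%. It left 1 member in DH-LMP2A against WT and turned Jun (-0.103), Egr2 (-0.002) and Egr3 (-0.018) in kFRA against DH-LMP2A. A mean of at least 5 CPM, at which Egr2 and Egr3 were not tested, left 1 member in each comparison with WT, 1095 genes in DH-LMP2A against WT, and Ier2 at -0.003 there. The DESeq2 Wald test called 1405 genes and 1 member in kFRA against DH-LMP2A. A fit of only the 6 libraries compared called 5 members in kFRA against WT, Fos, Fosb and Egr1 upward and Egr2 and Nr4a1 downward.

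The correlation of same-numbered deviations lay between -0.211 and 0.196, which does not settle whether the replicate numbers pair the mice. A fit with the replicate block called 685, 2930 and 2067 genes and 0, 2 and 2 members, Egr3 missing the threshold against WT (edgeR adjusted p = 0.0641 in kFRA and 0.084 in DH-LMP2A), and turned Egr1 (-0.203) and Ier2 (-0.078) in DH-LMP2A against WT.

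With the B cell markers as a covariate 242, 321 and 830 genes passed, with 0 members in kFRA against WT and 1 in DH-LMP2A against WT. Values that changed sign under it were Fos (-0.068), Fosb (-0.337), Jun (-0.795), Jund (-0.045), Egr1 (-0.642), Egr2 (-0.083) and Ier2 (-0.536) in kFRA against DH-LMP2A. In kFRA against WT they were Fos (-1.679), Fosb (-1.885), Jun (-1.27), Junb (-1.252), Jund (-0.257), Egr1 (-2.797), Egr3 (0.846) and Ier2 (-1.676). In DH-LMP2A against WT they were Fos (-1.612), Fosb (-1.548), Jun (-0.475), Jund (-0.212), Egr1 (-2.155) and Ier2 (-1.14). With the erythroid markers 452, 681 and 241 genes passed, with 0 members against WT, and Jun was at -0.158 in kFRA against DH-LMP2A. With the macrophage and granulocyte markers 697 genes and 1 member passed in kFRA against WT, and Egr3 (-0.222) and Nr4a1 (0.157) turned in kFRA against DH-LMP2A. With Xist, Egr3 was at -0.062 in kFRA against DH-LMP2A and Egr1 at -0.183 in DH-LMP2A against WT. Across all settings other than leaving out 1 library, Egr2 kept its sign in both comparisons with WT and passed in 9 of 12 for kFRA and 11 of 12 for DH-LMP2A, and Nr4a1 kept its sign and passed in 10 of 13 for each. Egr3 passed in 6 of 12 for each and turned once, to the 0.846 given above. Depth limits Egr2 and Egr3 most, which rest on as few as 12 and 13 counts in a library.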
